A study of Mus musculus with 2 samples.

Results

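Transcripts of the histone genes were compared between a culture of immortalised mouse bone marrow cells that carried active MEF2C and a culture with an empty vector. The histone set held every non-control array probe whose gene name begins with Hist1h, Hist2h, Hist3h or Hist4h, together with the probes for H1f0, H2afx, H2afy, H2afz, H2afj, H2afv, H3f3a and H3f3b. It came to 61 probes for 42 genes, of 41174 probes and 27962 gene names in all. The 34 Hist genes (44 probes) are called cluster histones here and the other 8 (17 probes) variant histones.

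Both cultures consisted of M/E cells, murine bone marrow cells made immortal by MLL/ENL, a fusion gene of leukaemia, on a Mef2c del/- genotype, from which the labels state that no functional Mef2c is made. The MEF2C-ASR culture carried a retroviral vector for a constitutively active Mef2c that is mutated in its binding of histone deacetylases, and the control culture carried the empty MYs-iPAC vector. Cells were grown in RPMI with serum, IL3, IL6 and GM-CSF at 10 ng/ml each and SCF at 100 ng/ml, and RNA from harvests at 6, 24 and 48 h after seeding in fresh medium was pooled for each culture. Each group was thus 1 culture, 1 RNA pool and 1 Agilent array of 1 colour, with no replicate. No difference below has a check against replicate cultures, no test was possible, and fewer cells of a kind cannot be told apart from less RNA per cell.

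Histones package DNA into nucleosomes, with pairs of H2A, H2B, H3 and H4 at the core and the linker histone H1 outside it. Cluster histone genes are transcribed in S phase under the coactivator NPAT, and their mRNAs end in a stem-loop bound by SLBP in place of a poly(A) tail. Variant histones are mostly made from polyadenylated mRNAs throughout the cell cycle and replace cluster histones at particular sites. As background, the labelling kit named in the labels starts cDNA synthesis from poly(A) tails, so signals of cluster probes do not measure total cluster histone mRNA.

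Promoters of 36 of the 42 genes were found in a RefSeq table of the mouse build GRCm38.p6, as windows of 250 bases before and 50 bases after an annotated start. Cluster histone promoters are known for a TATA box, CCAAT boxes, the octamer of H2B genes and the AAACACA box of H1 genes. The 120 bases before the start are printed below for 6 genes. Hist1h2bk and Hist1h2bm stand for the H2B class, which had the highest class median, Hist1h1b and Hist1h1e for the H1 genes that were higher in MEF2C-ASR cells, Hist1h2ab and H1f0 for the gene furthest above 0 and the gene furthest below 0. Each reads 5′ to 3′ towards its gene, and capitals mark on either strand the TATA box (TATAAA), the CCAAT box (letters CCAAT), the octamer (ATTTGCAT) and the H1 box (AAACACA).
Hist1h2bk (chr13:22035701-22035820, plus strand): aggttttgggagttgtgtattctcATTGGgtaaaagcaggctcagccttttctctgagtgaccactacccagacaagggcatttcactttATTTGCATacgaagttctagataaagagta
Hist1h2bm (chr13:21721924-21722043, plus strand): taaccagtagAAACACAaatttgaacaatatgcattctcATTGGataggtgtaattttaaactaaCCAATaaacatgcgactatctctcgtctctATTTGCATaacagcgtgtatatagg
Hist1h1b (chr13:21780626-21780745, minus strand): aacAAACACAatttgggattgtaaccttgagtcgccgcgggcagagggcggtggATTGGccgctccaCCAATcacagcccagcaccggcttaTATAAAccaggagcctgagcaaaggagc
Hist1h1e (chr13:23622559-23622678, minus strand): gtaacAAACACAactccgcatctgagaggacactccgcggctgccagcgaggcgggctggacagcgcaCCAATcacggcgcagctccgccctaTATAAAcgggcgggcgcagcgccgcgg
Hist1h2ab (chr13:23750968-23751087, plus strand): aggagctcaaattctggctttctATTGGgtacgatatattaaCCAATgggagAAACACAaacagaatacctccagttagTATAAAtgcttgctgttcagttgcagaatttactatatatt
H1f0 (chr15:79028092-79028211, plus strand): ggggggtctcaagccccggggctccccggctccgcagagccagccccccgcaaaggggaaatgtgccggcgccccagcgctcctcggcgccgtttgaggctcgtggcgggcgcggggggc
Both H2B stretches hold an octamer in the last part of the window, and both H1 stretches hold the AAACACA box, CCAAT and TATAAA, in that order. The printed stretch of H1f0 holds none of the 4 motifs. Array values of the 2 printed H2B genes are uncertain as to the copy, since their probes name 4 histone genes each.

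Over the whole windows of 300 bases and on both strands, TATAAA was found in 19 of 29 cluster promoters (65.5%) and 1 of 7 variant promoters, against 13.6% of the 32851 promoters in the table. CCAAT was in 26 of 29 cluster promoters (89.7%) and 5 of 7 variant promoters, against 37.4% of all promoters. Of the H4 promoters 2 of 5 held it, near the share of all promoters, and in the other cluster classes every promoter did. The octamer ATTTGCAT was in 9 of 29 cluster promoters (31.0%), of which 6 were of 11 H2A genes and 3 of 5 H2B genes, against 1.74% of all. The AAACACA box was in 5 of 6 H1 promoters (83.3%), 2 of 11 H2A promoters and 2 of 5 H2B promoters, against 7.18% of all. In the 36 member promoters 0 held different motifs that overlapped. A match describes the letters of a window, and binding was not measured.

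On the arrays, each spot has a processed signal on a linear scale and a flag for standing well above background. The log2 level is the log2 signal minus the array's 75th percentile, a signal of 1240 on the MEF2C-ASR array and 1272 on the control array. A difference is the MEF2C-ASR level minus the control level, so equal signals give a slightly positive difference. A level gives the brightness of a probe, and a difference in level between probes is not read as a difference in transcript abundance. The MEF2C-ASR array had 67.5% of its spots well above background and the control array 60.1%. The Mef2c probe stood well above background on both arrays, with a signal of 1969 in MEF2C-ASR cells and 795 in control cells, a log2 difference of 1.34, and its place relative to the deleted part of the gene was not examined, while the second Mef2c probe did not stand well above background in either culture. The myeloid marker list, which checks the labelled origin, held 17 names for 15 genes, as some genes were listed by an older and a newer symbol. All 15 genes were on the array and measured, and Csf1r and Mpo were among them.

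Among histone probes, 52 of 61 (85.2%) were well above background on both arrays, against 59.3% of all non-control probes. This share was 36 of 44 for cluster probes (81.8%) and 16 of 17 for variant probes (94.1%). Of the other 9 probes, 3 were well above background on the MEF2C-ASR array only, 0 on the control array only and 6 on neither. Over all non-control spots the MEF2C-ASR array also had more well above background, 67.5% against 60.1%. Negative controls had a signal SD of 3.08 on the MEF2C-ASR array and 15.5 on the control array. Against the control array's lowest level well above background, a Hist2h2aa2 probe gave a log2 bound of -0.73 and a Hist1h2bc probe -0.38. Neither bound shows a higher level in MEF2C-ASR cells. In genes, 31 of 34 cluster genes and all 8 variant genes had a value. Hist1h2ac and Hist1h2be were well above background on neither array, with signals of 4.92 and 5.47 in MEF2C-ASR cells and 8.70 and 8.32 in control cells. Hist3h2ba, an H2B gene, had a signal of 49.0 in MEF2C-ASR cells, against 26.6 in control cells where it was not well above background. Its bound is a log2 difference of 0.39, or 1.31-fold, from 1 dim spot. That is less than 2 spotting errors of a dim probe, at 0.33 each as given below.

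**Figure D1:**
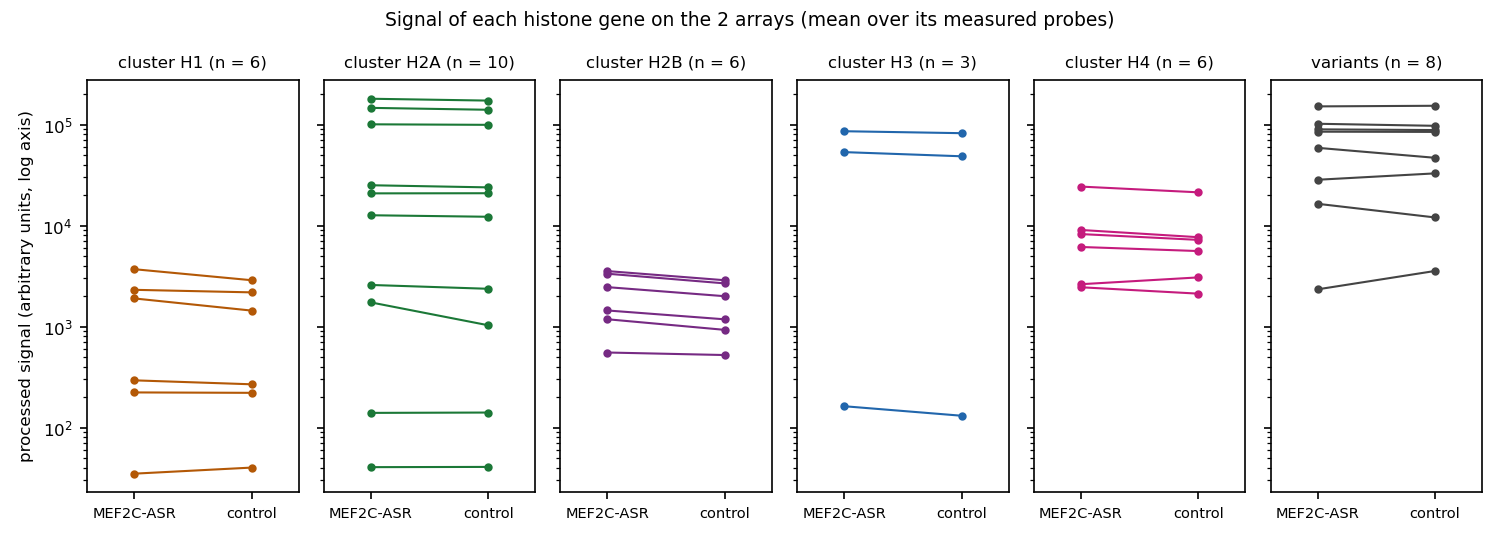
Processed signal of each measured histone gene (mean over its probes, arbitrary units, log axis) on the MEF2C-ASR array, left, and the control array, right, joined by a line per gene and grouped by class. Most lines fall towards the control array, mostly slightly, with Hist1h2ab falling most, at 1737 and 1031. The lines of H1f0, H2afx, H2afz, Hist1h4i and Hist1h1t run the other way, as do, by very little, those of Hist3h2a, Hist1h2ae and Hist2h2aa2.

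The cluster histones differed little in size and mostly in one direction. In MEF2C-ASR cells 29 of 31 measured cluster genes lay above 0 (93.5%), against 44.9% of all 16692 measured genes, and their median log2 difference was 0.17, or 1.12-fold, against -0.03 for all measured genes. No cluster or variant gene was 2-fold apart, a size that 1.75% of measured genes passed upwards and 1.92% downwards. At 1.5-fold 1 histone gene was higher, Hist1h2ab, and 0 were lower, against 4.48% of measured genes higher and 5.04% lower. H1f0 passed 1.5-fold lower under spike-in scaling (-0.588) and with the brightest probe of each gene (-0.592). Hist1h1t and Hist1h4i were the measured cluster genes below 0. Scaling on the spike-in probes in place of the 75th percentile moved the median of all measured genes to -0.17, the cluster median to 0.025 with 17 of 31 genes above 0, against 24.7% of all measured genes above 0 in that scaling, and the variant median to -0.069. This scaling shifts every gene by the same amount, so it leaves the distance between the cluster median and that of all measured genes as it was.

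The size of these differences was set against the error of spotting, from probes printed 10 times per array. Of these, 137 were well above background in every spot, and the SD of a difference was 0.33 for their dim part, 0.076 for the middle part and 0.059 for the bright part (log2), which leaves out variation between cultures, RNA pools and labelling. Each gene's error was the SD of its part divided by the square root of its number of measured probes. A rule of 2 such errors was added after the values were known. By this rule 15 of 31 cluster genes were higher and 1 was lower, against 18.4% of all measured genes higher and 20.8% lower. The other 15 cluster genes were within it. Of the 8 variant genes, 4 were higher, 2 were lower and 2 were within it. Under spike-in scaling 9 cluster genes were higher and 1 was lower, and 2 variant genes were higher and 4 were lower, against 9.56% of all measured genes higher and 37.5% lower.

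**Figure D2:**
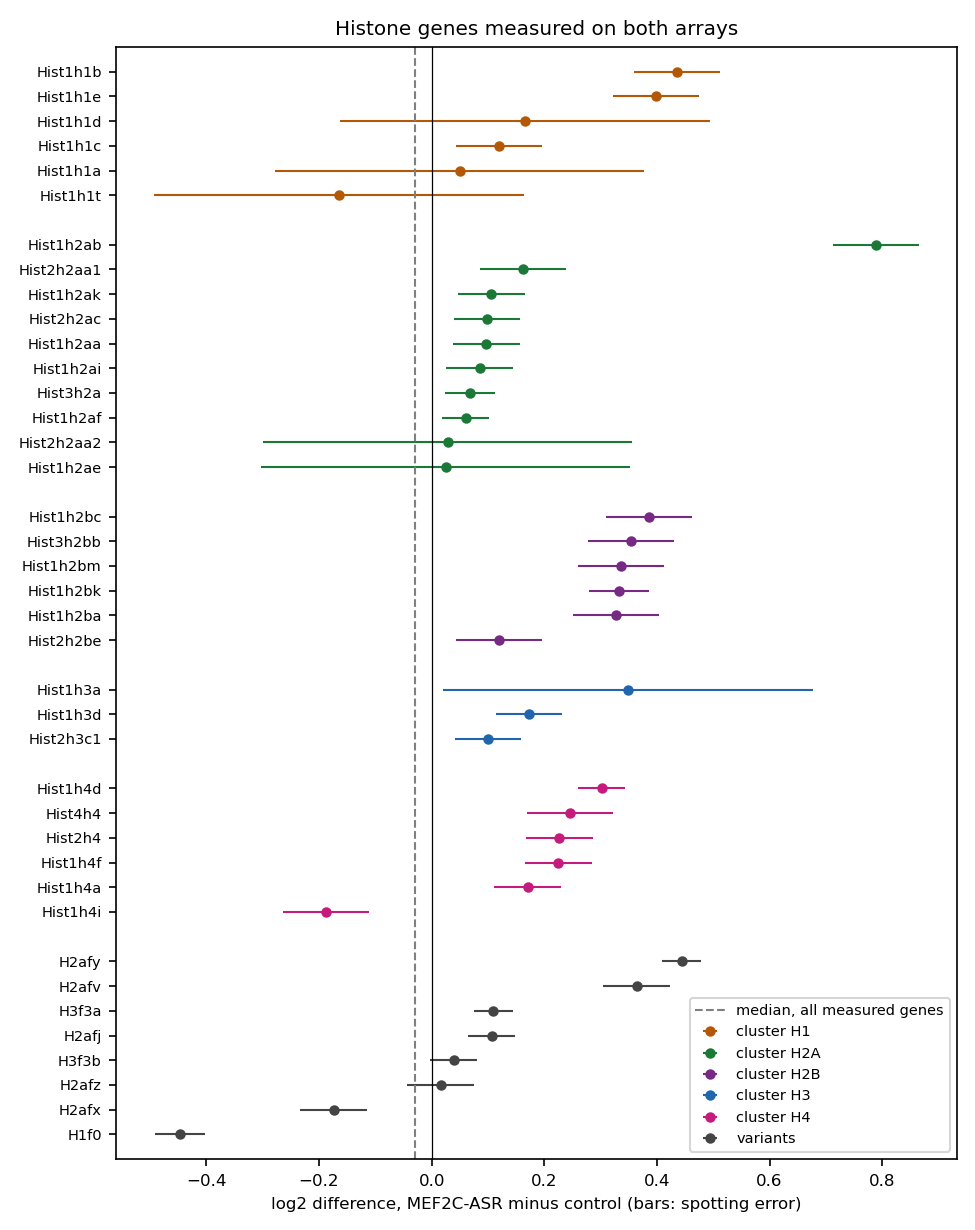
Log2 difference, MEF2C-ASR minus control, of each of the 39 measured histone genes, by class, with bars of 1 spotting error each way and a dashed line at the median of all measured genes. Hist1h2ab is furthest above 0 at 0.79 and H1f0 furthest below at -0.45.

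Among the linker histone genes, Hist1h1b and Hist1h1e were higher in MEF2C-ASR cells. Of 6 measured H1 genes 5 lay above 0 (3 under spike-in scaling), with a median of 0.14 (0.0017 under spike-in scaling). Hist1h1b, which encodes the linker histone H1.5, had a signal of 1901 in MEF2C-ASR cells and 1440 in control cells (log2 difference 0.44). Hist1h1e, for H1.4, had 3701 in MEF2C-ASR cells and 2879 in control cells (0.40). These 2 genes passed the rule of 2 spotting errors and the other 4 did not. By this rule 18.4% of all measured genes were higher. Hist1h1c, for H1.2, had a signal of 2313 in MEF2C-ASR cells and 2182 in control cells, and its difference of 0.12 was within 2 spotting errors. Hist1h1d, for H1.3, differed by 0.17 and Hist1h1a, for H1.1, by 0.05, both at signals under 300 in both cultures. Hist1h1t, the testis form of H1, gave 35.0 in MEF2C-ASR cells and 40.2 in control cells, a difference of -0.16 within the error of dim probes.

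H2A genes lay close together apart from 1 gene. All 10 measured members were above 0 (2 under spike-in scaling), with a median of 0.09 (-0.05 under spike-in scaling), and 9 of them lay between 0.02 and 0.16. Hist1h2ab stood apart, with a signal of 1737 in MEF2C-ASR cells and 1031 in control cells, a log2 difference of 0.79 or 1.73-fold. It rests on 1 probe, whose accessions name no other histone gene. Hist2h2ac had a signal of 146413 in MEF2C-ASR cells and 140214 in control cells (0.10), and Hist1h2aa, known as a testis form, had 180257 in MEF2C-ASR cells and 172816 in control cells (0.10). The 2 probes of Hist1h2af gave 162540 and 38763 in MEF2C-ASR cells, against 161031 and 37836 in control cells (0.06 for the gene). In Hist2h2aa1 the signal was 2584 in MEF2C-ASR cells and 2368 in control cells (0.16, or 0.021 under spike-in scaling). Its probe names 2 histone genes. Hist1h2ab and Hist2h2aa1 were higher by over 2 spotting errors. These 2 of 10 H2A genes are a share near the 18.4% of all measured genes. Differences in the other H2A genes were 0.11 for Hist1h2ak, 0.09 for Hist1h2ai, 0.07 for Hist3h2a over 3 probes, 0.03 for Hist2h2aa2 and 0.02 for Hist1h2ae.

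H2B had the highest class median, 0.33 over 6 measured genes (0.19 under spike-in scaling, with 5 above 0), and 5 of the 6 lay between 0.33 and 0.39. Hist1h2bc had a signal of 1182 in MEF2C-ASR cells and 928 in control cells (0.39). Hist1h2bm had 3543 in MEF2C-ASR cells and 2877 in control cells (0.34). The 2 probes of Hist1h2bk, whose promoter is printed above, had 3443 and 1473 in MEF2C-ASR cells, against 2796 and 1202 in control cells (0.33). Both probes of Hist1h2bk gave the same direction and nearly the same size. Each names 4 histone genes, as does the Hist1h2bm probe, so these values are uncertain as to the copy. Hist3h2bb, which the RefSeq table lists as a transcribed pseudogene, had 3338 in MEF2C-ASR cells and 2677 in control cells (0.35), and Hist1h2ba, a testis form, had 1444 in MEF2C-ASR cells and 1180 in control cells (0.33). Hist2h2be was the member nearest 0, with 554 in MEF2C-ASR cells, 523 in control cells and a difference of 0.12 within 2 spotting errors. The 4750 measured genes within the range of level of the H2B genes had a median of -0.02.

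All 3 measured H3 genes lay above 0 (2 under spike-in scaling), with a median of 0.17 (0.032 under spike-in scaling). Hist1h3d had a signal of 53396 in MEF2C-ASR cells and 48555 in control cells (0.17), and Hist2h3c1 had 85959 in MEF2C-ASR cells and 82218 in control cells (0.10). Hist1h3a had the largest difference of the 3, 0.35, from signals of 163 in MEF2C-ASR cells and 131 in control cells, but it lay within 2 spotting errors of a dim probe. Hist1h3d passed that rule and Hist2h3c1 did not, while 18.4% of all measured genes were higher by it.

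Of 6 measured H4 genes, 5 were higher and 1 was lower by over 2 spotting errors, against 18.4% of all measured genes higher and 20.8% lower. Under spike-in scaling 1 was higher, Hist1h4d, and 1 was lower. Hist1h4d, with 2 probes, had 14824 and 3276 in MEF2C-ASR cells, against 12705 and 2642 in control cells (0.30). Hist4h4, which the files place on chromosome 6, had 2451 in MEF2C-ASR cells and 2119 in control cells (0.25). Hist2h4 had 8242 in MEF2C-ASR cells and 7221 in control cells (0.23). The class median was also 0.23 (0.084 under spike-in scaling). Hist1h4f had 24330 in MEF2C-ASR cells and 21345 in control cells (0.22), and Hist1h4a had 6142 in MEF2C-ASR cells and 5596 in control cells (0.17). Hist1h4i went the other way, with 2628 in MEF2C-ASR cells and 3069 in control cells, a difference of -0.19 on 1 probe. This probe was matched to its gene by an older symbol only, and its listed place is chr13:21406569-21406575, of unstated build.

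Variant histones differed among themselves in both directions, with 6 of 8 genes above 0 (2 of 8 under spike-in scaling) and a median of 0.07, and the cluster median minus the variant median was 0.09. H2afy encodes macroH2A1, a large H2A variant found on silent chromatin such as the inactive X chromosome. Its 3 probes had signals of 33121, 14262 and 1927 in MEF2C-ASR cells, against 24296, 10264 and 1563 in control cells. All of its probes were higher in MEF2C-ASR cells, for a log2 difference of 0.44 or 1.36-fold. H2afv, for the second H2A.Z protein, H2A.Z.2, had 58878 in MEF2C-ASR cells and 46908 in control cells (0.36). H2afz, for H2A.Z.1, had 151438 in MEF2C-ASR cells and 153572 in control cells, a difference of 0.02 within 2 spotting errors. Its second probe, which the files place on another chromosome (chr6:116197660-116197719, of unstated build), was well above background on neither array. The 2 H2A.Z genes therefore differed by unlike amounts, each on 1 measured probe, while no test of that contrast was possible. The H2afv probe was matched to its gene by an older symbol only. The measured H2afz probe had its local background flagged as an outlier on the MEF2C-ASR array.

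H1f0 was the variant gene furthest below 0. It encodes the linker histone H1.0, which is known to build up in quiescent and differentiated cells. Its 3 probes had signals of 6170, 481 and 361 in MEF2C-ASR cells, against 9536, 660 and 464 in control cells. All 3 were lower in MEF2C-ASR cells, for a log2 difference of -0.45, or 1.36-fold lower. H2afx, for the H2A variant that is phosphorylated at DNA breaks, was also lower, with 28428 in MEF2C-ASR cells and 32882 in control cells (-0.17). The genes for H3.3, the H3 variant placed outside replication, lay nearer to 0. H3f3a had 127676, 94014 and 84006 in MEF2C-ASR cells, against 125750, 86239 and 79813 in control cells (0.11). The 2 probes of H3f3b pointed in opposite directions, with 64191 and 115285 in MEF2C-ASR cells, against 67674 and 108897 in control cells (0.04). It was the 1 gene of the 9 histone genes with over 1 measured probe whose probes disagreed in sign. H2afj, for the H2A.J variant, had 167007 and 3122 in MEF2C-ASR cells, against 166441 and 2841 in control cells (0.11).

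**Figure D3:**
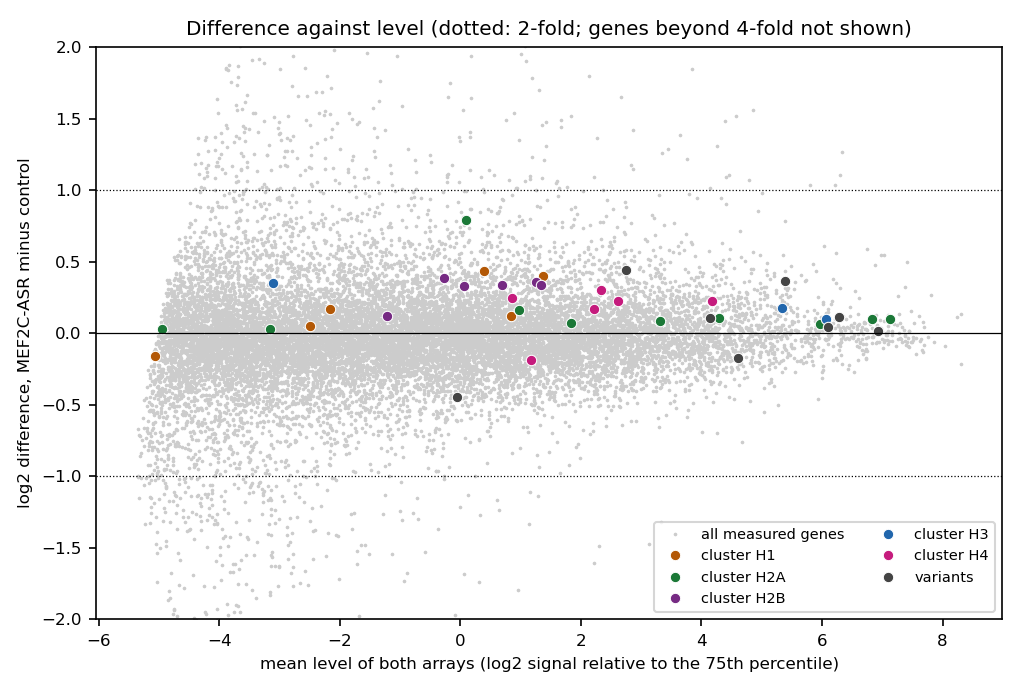
Log2 difference (MEF2C-ASR minus control) against mean log2 level for cluster histones by class, variant histones and all measured genes up to 4-fold apart, with dotted lines at 2-fold. Cluster genes lie above 0 except Hist1h1t and Hist1h4i (17 of 31 lie above 0 under spike-in scaling), and no histone gene reaches 2-fold.

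Across the 31 cluster genes, Pearson's r between the mean log2 level and the log2 difference was 0.013 and Spearman's rho was -0.038, as a description only, since the points share 2 arrays and many share probe sequence. With all measured genes cut into 5 bins of equal size by level, the 11 cluster genes of bin 4 had a median difference of 0.33 and the 12 of the brightest bin one of 0.10, whereas all measured genes had medians of -0.014 in bin 4 and -0.0024 in the brightest bin. By place, the Hist1 genes on chromosome 13 (22 measured) had a median of 0.17 with 20 above 0, and the Hist2 genes on chromosome 3 had 0.11 with all 6 above 0. The 2 measured Hist3 genes on chromosome 11 had a median of 0.21 and Hist4h4 on chromosome 6 had 0.25. Within Hist1, the probes fall into a pair of blocks, with medians of 0.22 over 6 genes and 0.17 over 16 genes.

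Coding sequences of many cluster H2A, H2B, H3 and H4 genes are nearly identical within their class, so a probe can bind mRNA of several genes. Of the 36 measured cluster probes, 13 list accessions of over 1 histone gene (5 H2A, 3 H2B, 2 H3 and 3 H4), and values of their genes are uncertain as to the copy. Their median difference was 0.17, against 0.12 for the 23 cluster probes with accessions of at most 1 histone gene. For H2B the medians were 0.34 over 3 probes and 0.34 over 4 probes, and for H4 they were 0.22 over 3 and 0.24 over 4. All H1 and variant probes list at most 1 histone gene. Local background was flagged as an outlier at 4 histone probes, those of Hist1h2ac, H2afz, Hist1h2aa and 1 probe of H3f3a.

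Genes of DNA replication lay mostly below 0, as did 55.1% of all measured genes. Of 25 measured S phase and replication genes 24 were below 0, with a median of -0.22. Ccne1, the cyclin that drives entry into S phase, was lower by 1.5-fold (-0.66). This 1 gene of 25 is a share near the 5.04% of all measured genes that were lower by 1.5-fold. Pcna, the replication clamp, differed by -0.19, and Mcm6, a subunit of the replicative helicase, by 0.04. The list of 19 histone chaperone and assembly genes had 16 below 0 and a median of -0.16, with -0.18 for Npm1 and -0.16 for Ssrp1, a subunit of the FACT complex. The 11 genes of histone mRNA 3′ end processing and transcription had a median of -0.09, with 7 below 0, a share near that of all measured genes. Slbp, which binds the histone stem-loop, differed by -0.07 and Lsm10, a subunit of the U7 particle that cleaves histone mRNA, by 0.10.

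H2A.Z exchange complexes had 6 of 9 genes below 0, also near the share of all measured genes, and a median of -0.07, with -0.16 for Ruvbl2 and -0.07 for Ruvbl1, the paired ATPases of these complexes. Of 6 histone methyltransferase genes 5 were below 0, with a median of -0.17, and the H3 lysine 27 enzyme Ezh2 differed by -0.23. The 14 mitosis genes had a median of -0.03, the same as all measured genes, with 5 above 0 and 9 below. None of these lists had a gene 2-fold apart. The cluster histones and these lists were not tested against each other, since each group has 1 array. Under a normexp background fit on all spots, which 4 spots of the control array distorted, the median of the S phase list was 0.33 and that of the chaperone list 0.32.

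**Figure D4:**
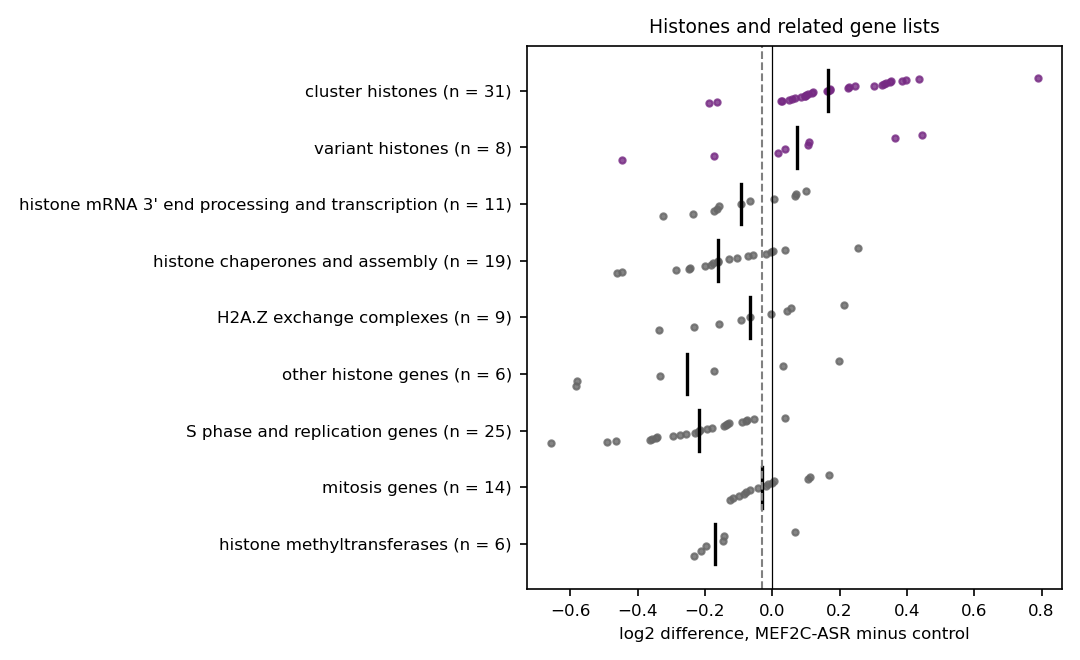
Log2 difference (MEF2C-ASR minus control) of the measured genes of each list, 1 point per gene, with list medians as ticks and the median of all measured genes, -0.03, dashed. Cluster histones have a median of 0.17, and the S phase and replication genes one of -0.22.

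Markers of myeloid cells also lay above 0. Of 15 measured myeloid genes 14 were above 0, with a median of 0.42 and a summed signal of 455010 in MEF2C-ASR cells and 358263 in control cells. Csf1r, the receptor for macrophage colony-stimulating factor, was 3.08-fold higher and Mpo, the granule enzyme myeloperoxidase, 2.15-fold higher. Most of the gap between the sums came from Mpo, with 143027 in MEF2C-ASR cells and 68289 in control cells. Ctsg, the largest part of the sum, had 204890 in MEF2C-ASR cells and 207062 in control cells. Sums for other cell types were 755 in MEF2C-ASR cells and 1074 in control cells for 10 stromal and endothelial genes. They were 424 in MEF2C-ASR cells and 349 in control cells for 6 B cell genes, and 1180 in MEF2C-ASR cells and 1463 in control cells for 8 T and NK cell genes. For 5 megakaryocyte genes they were 747 in MEF2C-ASR cells and 466 in control cells. Among the defining markers, Ebf1, Ncr1, Gp9 and Cdh5 were not well above background on both arrays. The part of these markers in the histone differences was not tested.

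**Figure D5:**
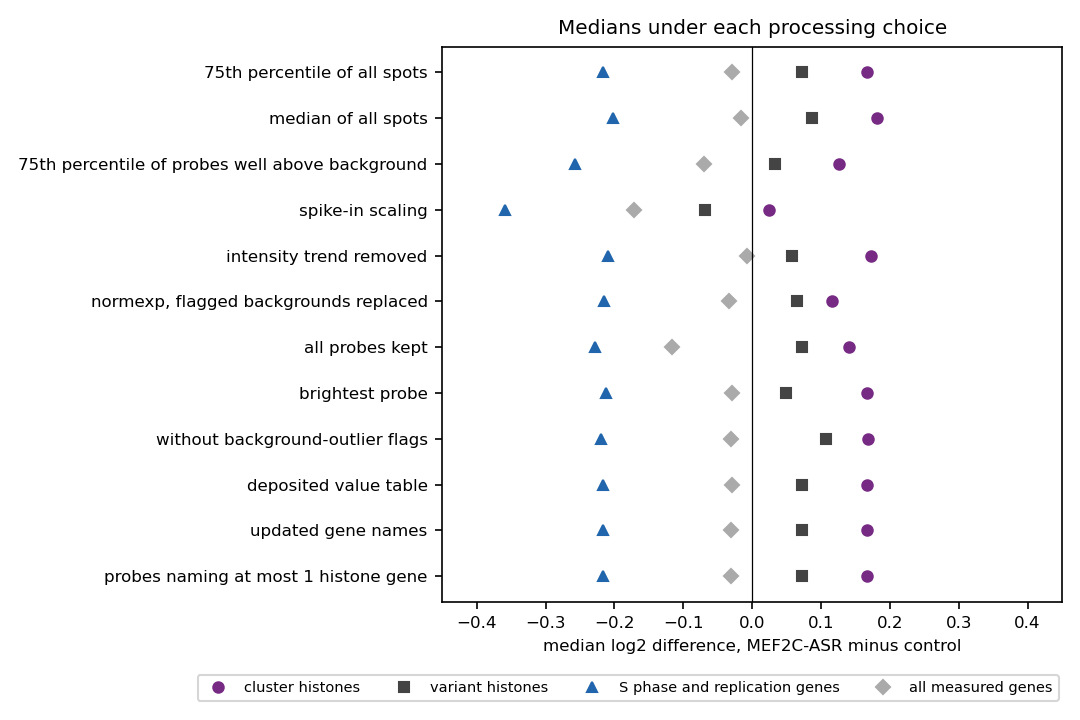
Median log2 difference (MEF2C-ASR minus control) of cluster histones, variant histones, S phase genes and all measured genes under each processing choice, 1 row per choice, without the background fit on all spots. Scaling on spike-in probes brings the cluster median to 0.025 and the median of all measured genes to -0.17, and in each row drawn the cluster median is the highest of the 4.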

How the data were processed

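RNA of 2 cultures was hybridised to 2 Agilent arrays of 1 colour, which shared a slide and a scan, per the file headers. The deposited values are spot intensity values made with Feature Extraction 9.5.1.1, which subtracted the background and detrended the signals, per the file headers. The arrays had not been normalized to each other. A deposited value table gave 45018 intensity values for each array, with a largest relative difference of 0 from the processed signals and medians of 83.2 for MEF2C-ASR and 85.8 for control. Its scale is thus the linear signal without centring.

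Processed signals were taken to log2, and the 75th percentile over 43379 non-control spots was subtracted. Outlier spots on either array were left out (201 on the MEF2C-ASR array and 202 on the control array), and no spot was saturated. A probe was measured where it was well above background on both arrays, and a gene's value is the mean over its measured probes. A gene well above background on 1 array only got a bound against the higher of its dim signal and the dim array's lowest level that stood well above background, -5.05 for control. Called genes passed 2-fold or 1.5-fold with all measured probes of one sign. Gene names are those of the files, and RefSeq tables (GRCm38.p6) matched 50 histone probes by accession and 11 by an older symbol. The sources used here do not give the genome build of the probe coordinates.

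With 1 array per group no test was run. The number of arrays limits the precision. The steps were tested on simulated data. Named by rule were all variant genes, in each cluster class the 3 genes of highest level and the 2 of largest difference, genes measured on 1 array only, and in each comparison list up to 4 genes at least 2-fold apart or the 2 of highest level. The other histone genes are given as members. The erythroid marker list is not reported here. Members and lists were chosen with earlier results of these data known. Alternatives covered scaling, background (normexp with an offset of 50), an intensity trend, and the choice of probes and names. Work used Python 3.11.15, numpy 2.4.6, pandas 2.3.3, statsmodels 0.14.6, R 4.3.3 and limma 3.58.1.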

Additional observations from a re-analysis of the deposited data

How the results depend on the processing

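No paired analysis was possible because each group has 1 array. Over 11 alternatives, leaving out the normexp fit on all spots, the cluster median ranged from 0.025 to 0.18, the variant median from -0.069 to 0.11 and the cluster median minus that of all measured genes from 0.15 to 0.26, and 0 histone genes were 2-fold apart. Spike-in scaling moved the medians to 0.025 for cluster histones, -0.069 for variants, -0.23 for 3′ end processing, -0.30 for chaperones, -0.21 for H2A.Z exchange, -0.39 for other histone genes, -0.36 for S phase, -0.17 for mitosis and -0.31 for methyltransferases. The normexp fit on all spots gave 0.48 for cluster histones, 0.68 for variants and -0.21 for their difference, with 6 cluster genes and 1 variant gene 2-fold apart. Its list medians were 0.20 for 3′ end processing, 0.32 for chaperones, 0.062 for H2A.Z exchange, -1.24 for other histone genes, 0.33 for S phase and 0.46 for mitosis. It also put 20 histone genes over 1.5-fold higher and 7 lower, and by over 2 spotting errors 7 cluster genes lower and 7 variant genes higher. Of variant genes 2 were higher by that rule under spike-in scaling and 2 with the brightest probe, and of cluster genes 9 under spike-in scaling. On the control array 4 spots lay over 1000 below background, and the fitted mean was -11.0 for MEF2C-ASR and -905 for control. With flagged backgrounds replaced, chosen after seeing the data, the fitted means were -9.97 for MEF2C-ASR and -11.1 for control, and the cluster median was 0.12. Keeping probes at background gave -0.85 for H2afz and -0.31 for Hist4h4. Of 314 values of named genes under the alternatives, 64 moved by at least the gene's spotting error and 16 had another sign. Signals near background limit Hist1h1t, Hist2h2aa2 and the genes not measured.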

Other observations

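Of 8 histone genes outside the name rule that are on the array, 6 were measured, with a median of -0.25. The 4 genes below 0 are a share near the 55.1% of all measured genes. Both probes of H1fx, the linker histone H1.10 (H1X), were lower in MEF2C-ASR cells, at -0.67 and -0.50. The log2 difference of the gene was -0.58, beside -0.45 for the linker variant H1f0. The H1fx probes had a mean signal of 32564 in MEF2C-ASR cells but a mean log2 level of only 0.72. So 1 of them was dim, and the spotting error of a dim probe was 0.33. H1fnt, a linker histone of the testis, also differed by -0.58, from signals of 60.6 in MEF2C-ASR cells and 93.1 in control cells, which is within 2 spotting errors of a dim probe. H1foo, the linker histone of oocytes, differed by 0.033. H2afy2, for macroH2A2, had 181 in MEF2C-ASR cells and 234 in control cells (-0.33), also within 2 spotting errors. Cenpa, the centromeric H3, had 8631 in MEF2C-ASR cells and 7714 in control cells (0.20). The probe named H2afy3 had 7805 in MEF2C-ASR cells and 9013 in control cells (-0.17). Cenpa and H2afy3 were named for their level, and the others were chosen after their values were seen.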
